A study of Mus musculus with 8 samples.

Results

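The genes described here are 44 DNA replication and mitosis genes of the mouse, chosen by name as 22 genes that act in DNA synthesis and 22 that act in chromosome segregation, and 43 of the 44 were measured. All 22 replication genes and 21 of the 22 mitosis genes had a probe set that the array annotation ties to a single symbol, and Ccnb1 is not analysed here for lack of one in the annotation used. They stand among 18194 genes measured the same way. Total RNA came from a 10 mm stretch of sciatic nerve below a cut made at the sciatic notch of adult mice 7 days earlier, or from the uninjured nerve of the other leg. Control mice (labelled CTRL and WT) were set against c-Jun mutants (labelled KO), each with cut and with uncut nerve, which gave 4 groups of 2 Affymetrix arrays, 8 in all. Each array held the pooled nerves of 4 or 6 mice. The labels do not give the strain, the sex, or the alleles the control mice carry. In published work on this mouse, c-Jun is removed from Schwann cells with a Cre recombinase active in that lineage, so other cells of the nerve keep the gene. The labels do not state this for these samples.

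The labels call the material Schwann cells, but a nerve segment also holds macrophages, fibroblasts and vessels. Of 10 Schwann cell markers, 8 were measured, and none of them lay below the 25th percentile of signals on all arrays. All 10 macrophage markers were measured too, and none lay below it on all arrays. A log2 value from such a mixture is a level per amount of RNA, and fewer cells of a type cannot be told apart from less RNA per cell.

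A dividing cell copies its DNA in S phase and separates the copies in mitosis. The MCM helicase is loaded at replication origins by Cdc6 and Cdt1, fires with the GINS proteins, and is followed by polymerases that the PCNA clamp holds on the template. In mitosis, Cdk1 with cyclins A and B drives entry, the Aurora and Polo kinases and motor proteins build the spindle, Bub1 and its partners check attachment, and Cdc20 with the anaphase-promoting complex ends it. The replication genes are textbook targets of E2F factors and the mitosis genes are textbook targets of the DREAM and MuvB-Foxm1 complexes, which act through a short element called CHR, often beside CCAAT boxes bound by NF-Y. In the nerve below a cut, Schwann cells and macrophages are the cells best known to divide.

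The promoters of both gene classes are shown because the classes differ in these elements. Promoter windows of 300 bases (250 before to 50 after the annotated start, RefSeq, GRCm38.p6) were held for 35 of the 43 measured genes, 18 replication and 17 mitosis genes. An E2F spelling (TTTCCCGC, TTTCGCGC, TTTGCCGC or TTTGGCGC, on either strand) stood in 8 of 18 replication promoters (44.4%) and in 1 of 17 mitosis promoters (5.88%), that of Cdk1, against 2.6% of all 27025 genes with a window. A CHR spelling (TTTGAA or TTCGAA, on either strand) stood in 3 of 18 replication promoters (16.7%) and 14 of 17 mitosis promoters (82.4%), against 21.7% of all genes. A CCAAT box on either strand stood in 12 of 18 (66.7%) and 15 of 17 (88.2%), against 41.1%. CHR and CCAAT stood together in the same 3 of 18 replication windows (16.7%) and 14 of 17 mitosis windows (82.4%), against 9.65% of all genes. Longer runs can hold overlapping E2F spellings of both strands. These are matches of letters, and the spellings were taken from the known biology of the classes.

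The following 200 bases end at the base before the annotated start, run 5′ to 3′ on the gene's strand, and carry every E2F, CHR and CCAAT match in capitals. Mcm5, chr8:75109309-75109508 (forward strand), Mcm6, chr1:128359706-128359905 (reverse strand), and Cdc6, chr11:98907951-98908150 (forward strand), are replication promoters with an E2F match. Among replication genes with a single window and such a match in these 200 bases, they rose most after the cut in control mice. Rrm2, chr12:24708054-24708253 (forward strand), was chosen for its response, and within this stretch it held a CCAAT match and no E2F spelling.
Mcm5: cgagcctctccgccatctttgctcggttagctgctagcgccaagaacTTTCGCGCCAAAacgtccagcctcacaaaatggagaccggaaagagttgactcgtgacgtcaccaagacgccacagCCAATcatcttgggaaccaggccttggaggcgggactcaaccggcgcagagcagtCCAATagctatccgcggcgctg
Mcm6: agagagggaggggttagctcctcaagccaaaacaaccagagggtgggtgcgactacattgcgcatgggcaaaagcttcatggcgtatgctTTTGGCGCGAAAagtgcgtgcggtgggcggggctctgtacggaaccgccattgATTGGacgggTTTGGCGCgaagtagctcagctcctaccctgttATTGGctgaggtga
Cdc6: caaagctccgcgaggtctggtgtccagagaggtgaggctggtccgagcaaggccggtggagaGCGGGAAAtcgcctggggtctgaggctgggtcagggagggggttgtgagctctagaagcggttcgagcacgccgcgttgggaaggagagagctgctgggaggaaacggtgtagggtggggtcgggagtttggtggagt
Rrm2: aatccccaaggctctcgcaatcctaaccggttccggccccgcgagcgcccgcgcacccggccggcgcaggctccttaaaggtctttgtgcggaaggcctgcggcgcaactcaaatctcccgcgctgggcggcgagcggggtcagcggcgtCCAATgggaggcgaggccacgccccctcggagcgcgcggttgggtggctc

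Mki67, chr7:135716380-135716579 (reverse strand), and Top2a, chr11:99024190-99024389 (reverse strand), are mitosis promoters with several CHR and CCAAT matches. Cdk1, chr10:69352913-69353112 (reverse strand), carried matches of all 3 kinds. Among mitosis genes with a single window and a CHR match in the stretch shown, Mki67, Top2a and Cdk1 rose most after the cut in control mice. Kif11, chr19:37376182-37376381 (forward strand), was chosen for its response and carried a CCAAT and a CHR match.
Mki67: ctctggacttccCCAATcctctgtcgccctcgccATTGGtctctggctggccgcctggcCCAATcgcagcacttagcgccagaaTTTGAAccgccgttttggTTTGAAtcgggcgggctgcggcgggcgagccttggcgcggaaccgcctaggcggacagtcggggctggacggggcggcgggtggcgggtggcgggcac
Top2a: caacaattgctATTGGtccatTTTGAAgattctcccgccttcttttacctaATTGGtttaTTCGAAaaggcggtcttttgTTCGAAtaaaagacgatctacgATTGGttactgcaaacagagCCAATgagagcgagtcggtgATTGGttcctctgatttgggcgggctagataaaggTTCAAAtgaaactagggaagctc
Cdk1: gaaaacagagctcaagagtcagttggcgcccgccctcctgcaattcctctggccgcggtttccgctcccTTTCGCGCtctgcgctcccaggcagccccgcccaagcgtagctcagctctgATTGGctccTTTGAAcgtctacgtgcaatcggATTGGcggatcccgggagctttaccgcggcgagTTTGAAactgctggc
Kif11: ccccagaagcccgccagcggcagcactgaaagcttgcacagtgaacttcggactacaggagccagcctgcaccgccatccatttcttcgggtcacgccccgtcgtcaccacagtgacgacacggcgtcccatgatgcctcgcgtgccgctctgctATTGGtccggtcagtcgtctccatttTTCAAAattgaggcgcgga

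The targeted gene was examined first. Jun, which encodes c-Jun, read 9.58 and 9.70 on the log2 scale in control uncut, 11.88 and 11.96 in control cut, 9.62 and 9.59 in mutant uncut, and 10.39 and 10.80 in mutant cut nerve. The groups separated in cut nerve, where the mutant was lower by 1.33 (adjusted p = 0.00608, limma with Benjamini-Hochberg adjustment over all 18194 genes). The same model gave every adjusted p below, and a gene is called changed where that p is under 0.05. Replicate arrays correlated at 0.993 to 0.995 over all genes, arrays of both genotypes within cut or within uncut nerve at 0.991 to 0.994, and cut with uncut arrays at 0.95 to 0.964. With 2 arrays a group, an exact permutation test of a single value cannot go below p = 0.333, so the tests rest on the spread that limma pools across genes.

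Cutting the nerve raised the mitosis genes far more than the replication genes in control mice. All 21 measured mitosis genes and 18 of 22 replication genes were called higher in cut than in uncut nerve, where 15.6% of all genes were (27.7% in either direction). The median difference was 2.60 on the log2 scale for the mitosis genes, 6.08-fold, and 0.87 for the replication genes, 1.83-fold, against 0.03 for all genes. For all 43 genes the 4 cut arrays of both genotypes lay above the 4 uncut arrays, as they did for 20.6% of all genes. The 4 replication genes not called were Rfc4 (0.62, adjusted p = 0.0547), Rfc3 (0.50, 0.0681), Pola1 (0.51, 0.0753) and Tyms (0.26, 0.134). Median differences below are on the log2 scale and per gene, and levels of different genes are not compared, since each has its own probes.

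**Figure D1:**
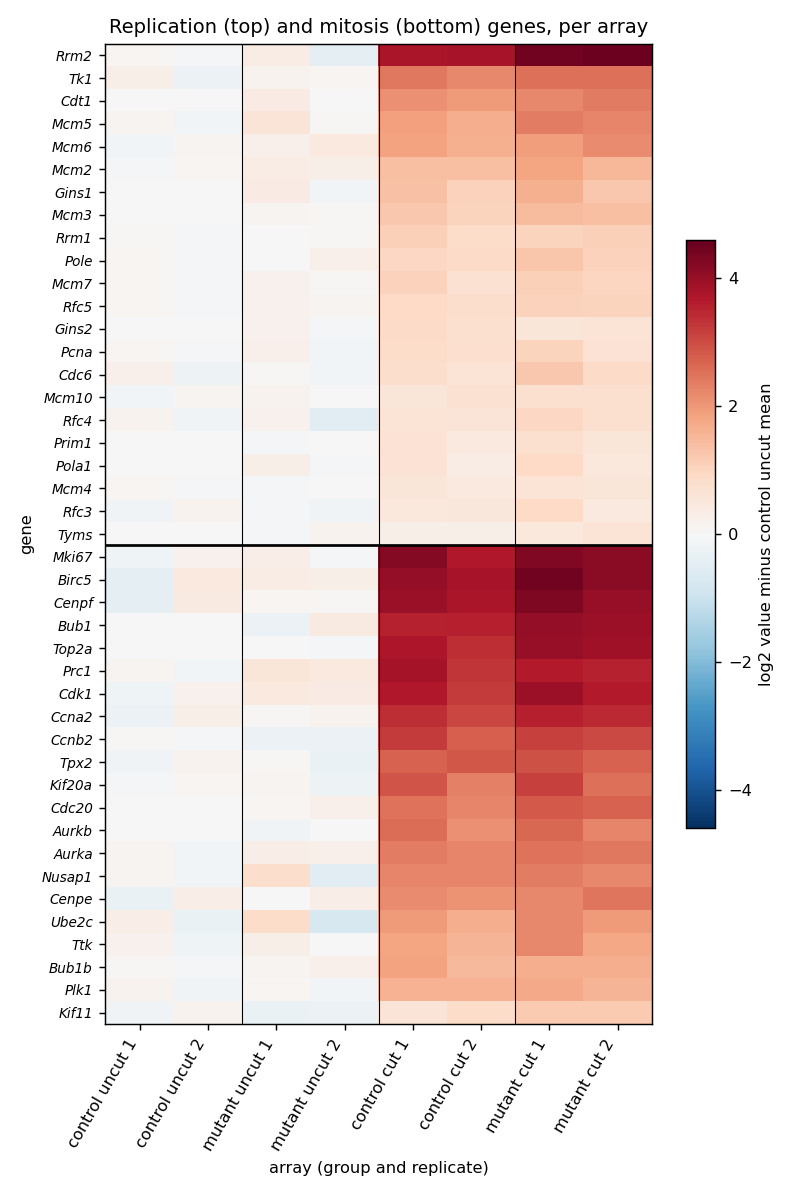
Each row is a gene, replication genes above the line and mitosis genes below it, and each column an array. Colour gives the log2 value minus the mean of the 2 control uncut arrays. The 4 cut arrays are redder than the 4 uncut arrays in every row, and more so in most mitosis rows.

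In control mice the enzymes that supply nucleotides held both the highest and the lowest response of the replication genes. Rrm2, the regulated subunit of ribonucleotide reductase, read 6.51 and 6.31 in control uncut and 10.17 and 10.19 in control cut nerve, and 6.75 and 6.00 in mutant uncut and 10.84 and 10.93 in mutant cut nerve. It rose by 3.77 in control (SE 0.21, adjusted p = 9.06e-06) and by 4.51 in the mutant (adjusted p = 4.95e-06). Both mutant cut arrays lay above both control cut arrays. Tk1, the S-phase thymidine kinase, read 6.12 and 5.61, then 8.29 and 8.07 in control, and 6.02 and 5.94, then 8.41 and 8.39 in the mutant, uncut before cut. It rose by 2.32 and 2.42. Rrm1, the large subunit of ribonucleotide reductase, rose by 0.97 and 1.02. Tyms, thymidylate synthase, read 4.72 and 4.74, then 4.99 and 4.98 in control, and 4.64 and 4.88, then 5.22 and 5.37 in the mutant. All 4 of its uncut arrays lay below the 25th percentile of signals, as did 1 control cut array. Its difference of 0.26 in control thus lies at the floor and is no measure of size. Its 0.54 in the mutant starts from uncut arrays below that percentile, so its size is uncertain too. The 3 other Tyms probe sets gave -0.19 to 0.05 in control and -0.04 to 0.23 in the mutant. Those 3 lay below that percentile on all 4 cut arrays. The difference was called in the mutant only (adjusted p = 0.00917), and not without mutant uncut replicate 1 (0.0562) or mutant cut replicate 2 (0.0645).

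The licensing and helicase genes followed. Cdt1, which loads the helicase, read 7.42 and 7.39 in control uncut, 9.51 and 9.37 in control cut, 7.77 and 7.41 in mutant uncut, and 9.63 and 9.78 in mutant cut nerve. It rose by 2.04 in control and 2.11 in the mutant, the third-highest replication response in both. Its partner Cdc6 rose by 0.71 and 1.10. All 6 MCM helicase subunits, Mcm2 to Mcm7, rose in both genotypes, with medians of 1.25 in control and 1.34 in the mutant. They were not uniform, although the proteins form a ring with each subunit present once: Mcm5 rose by 1.79 and 1.99 and Mcm6 by 1.73 and 1.71, but Mcm4 by 0.51 and 0.62. Mcm5 read 7.13 and 6.90, then 8.91 and 8.70 in control, and 7.60 and 7.06, then 9.36 and 9.27 in the mutant, uncut before cut. Of the genes that fire the helicase, Gins1 rose by 1.20 and 1.29, Gins2 by 0.81 and 0.54, and Mcm10 by 0.62 and 0.68. Another Gins2 probe set rose by 1.15 and 1.16. Other Mcm10 probe sets differed by 0.14 and 0.10 in control and by 0.01 and 0.10 in the mutant, none called. The second of them lay below the 25th percentile of signals on all 4 cut arrays.

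The clamp, clamp loader and polymerase genes of the fork differed by 0.50 to 0.90 in control and by 0.60 to 1.08 in the mutant. The clamp Pcna rose by 0.80 in control and 0.79 in the mutant, and Rfc5, part of the clamp loader, by 0.86 and 0.87. Rfc3, another loader subunit, read 6.88 and 7.22, then 7.52 and 7.57 in control, and 7.01 and 6.88, then 7.98 and 7.49 in the mutant. The cut arrays lay above the uncut arrays in both genotypes, but the difference of 0.50 was not called in control. In the mutant it rose by 0.79 (adjusted p = 0.0118), a call lost without mutant uncut replicate 2 (0.07) or mutant cut replicate 1 (0.0578), and in control it was called without either mutant cut array (0.03), on the 4 control arrays alone (0.0391) and with the mean of probe sets (0.65, 0.0136). Its other probe set gave 0.80 in control (adjusted p = 0.00976 over all probe sets). The polymerase genes had medians of 0.56 in control and 0.69 in the mutant. Pole, the catalytic subunit of the leading-strand polymerase, rose by 0.90 and 1.08, the primase Prim1 by 0.56 and 0.69, and Pola1 by 0.60 in the mutant.

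Among mitosis genes the chromatin genes led, with medians of 3.76 in control and 4.06 in the mutant. Mki67, which coats mitotic chromosomes and encodes the Ki-67 antigen, read 6.43 and 6.82 in control uncut, 10.85 and 10.33 in control cut, 6.93 and 6.55 in mutant uncut, and 10.90 and 10.79 in mutant cut nerve. It rose by 3.96 in control (SE 0.21, adjusted p = 6.67e-06) and 4.11 in the mutant. The 2 control cut arrays lay farther from each other than the 2 cut group means did (0.26). Top2a, which untangles chromosomes, read 6.22 and 6.19, then 9.93 and 9.61 in control, and 6.21 and 6.11, then 10.23 and 10.12 in the mutant. It rose by 3.56 and 4.02 on the probe set used, while 2 other Top2a probe sets differed by 0.94 and 0.08 in control.

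Cyclin and Cdk genes had medians of 3.24 and 3.39. Cdk1 rose by 3.46 in control and 3.39 in the mutant, Ccna2 by 3.24 and 3.39, and Ccnb2 by 2.98 and 3.36. The kinase and checkpoint genes spread from 1.60 to 3.92 in control. Birc5, the survivin subunit of the chromosomal passenger complex, read 4.46 and 5.37, then 8.94 and 8.72 in control, and 5.25 and 5.17, then 9.34 and 9.05 in the mutant. It rose by 3.92 and 3.99, and 1 of its uncut arrays lay below the 25th percentile of signals. Bub1, a checkpoint kinase, read 4.29 and 4.33, then 7.87 and 7.90 in control, and 4.05 and 4.71, then 8.36 and 8.24 in the mutant. All its uncut arrays lay below the 25th percentile, so its rises of 3.57 and 3.92 are lower bounds for the probe set used. The same holds for Aurkb (2.33 and 2.54) and Kif20a (2.60 and 2.88). Another Aurkb probe set rose by only 1.73 and 2.15. Another Bub1 probe set, below the 25th percentile on all 4 cut arrays, differed by 0.48 and 0.83. Plk1, the Polo kinase, read 6.58 and 6.25, then 8.03 and 8.00 in control, and 6.51 and 6.29, then 8.15 and 7.99 in the mutant, and rose by 1.60 and 1.67.

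Kinetochore and motor genes held the other extremes. Cenpf, a kinetochore protein, read 4.62 and 5.43, then 8.99 and 8.77 in control, and 5.10 and 5.10, then 9.33 and 9.02 in the mutant. It rose by 3.85 and 4.08, while 2 other probe sets of the gene differed by 0.48 and 0.62 in control, neither called. Kif11, the motor that pushes spindle poles apart, read 5.64 and 5.95 in control uncut, 6.39 and 6.64 in control cut, 5.51 and 5.51 in mutant uncut, and 6.99 and 7.02 in mutant cut nerve. Its rise of 0.72 in control was the lowest of the mitosis genes, and in the mutant it was 1.49. That low place went with the probe set used: 2 other Kif11 probe sets rose by 2.89 and 1.85 in control and by 3.06 and 2.10 in the mutant. The spindle genes rose by a median of 2.79 in control and 2.94 in the mutant. Of these, Tpx2, which activates Aurora A, rose by 2.79 and 2.94 on the probe set used and by 2.72 and 2.88 on another, while 2 further Tpx2 probe sets differed by 0.18 and 0.05 in control. Cdc20 and Ube2c, which drive the exit from mitosis, rose by 2.37 and 1.81 in control and by 2.61 and 2.01 in the mutant.

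In mutant mice all 22 replication and all 21 mitosis genes were called higher in cut nerve, where 12.3% of all genes were called higher and 25.2% in either direction. The medians were 1.004 and 2.88 against -0.03 for all genes. With 1 array left out in turn, 19 to 22 replication and 20 to 21 mitosis genes were called. Pola1 (adjusted p = 0.0459) lost its call in several of these fits, with median centring and with only the 4 mutant arrays, and Ube2c lost it without mutant cut replicate 1 and with a trended variance. The injury difference was called in both genotypes for 39 genes and in the mutant alone for 4, but the difference between genotypes was not called for any of these. Of 51 probe sets of these genes that were not used, 28 were called higher in control and 34 in the mutant, and none lower. Values for the same genes in both genotypes lay near the line of equal difference, with Rrm2 and Kif11 above it and Prc1, which bundles spindle microtubules, below it (3.55 and 3.07). The place of Prc1 went with the probe set used, since its other probe set rose by 3.60 and 3.61.

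**Figure D2:**
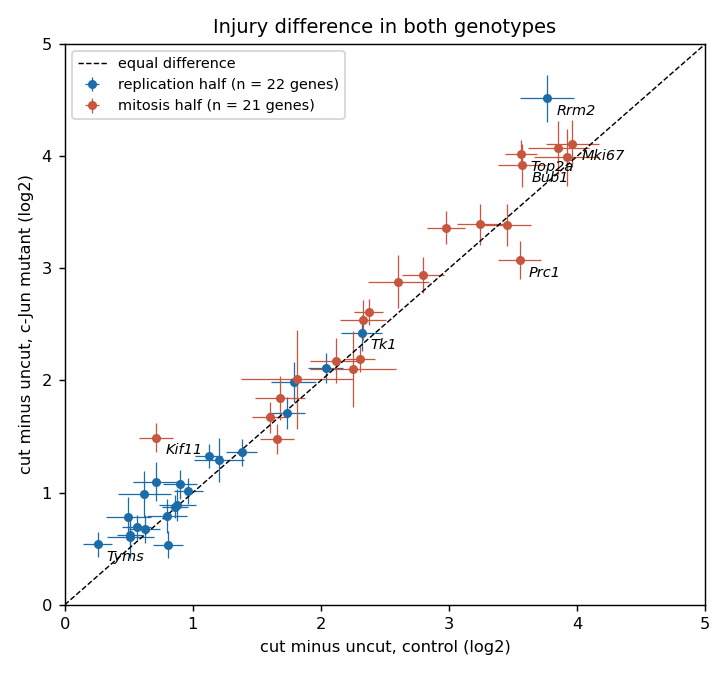
Each point is a gene, with the cut minus uncut difference in control on the x axis and in the mutant on the y axis, both log2, and bars of 1 standard error. Mitosis genes reach 3.96 and 4.11 (Mki67), most replication genes stay under those, and Rrm2 stands at 3.77 and 4.51.

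The replication and mitosis classes were then compared between genotypes. Each array was given the mean over a class relative to the control uncut mean. The replication mean was 0.04 and -0.04 in control uncut, 1.20 and 1.06 in control cut, 0.17 and -0.00 in mutant uncut, and 1.41 and 1.30 in mutant cut nerve. The mitosis mean was -0.05 and 0.05, then 2.80 and 2.56 in control, and 0.17 and 0.01, then 3.002 and 2.82 in the mutant. In cut nerve both means were higher on both mutant arrays than on both control arrays, by 0.22 and 0.23 between group means, where replicates of a group had a pooled SD of 0.09 and 0.13. The mitosis mean of mutant replicate 2 exceeded that of control replicate 1 by only 0.02. The distance between the classes differed between genotypes by less than the spread of replicates: mitosis minus replication was 1.55 ± 0.07 (SD, n = 2) in control cut and 1.56 ± 0.05 in mutant cut nerve. In uncut nerve it was 0.00 ± 0.13 and 0.01 ± 0.01.

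**Figure D3:**
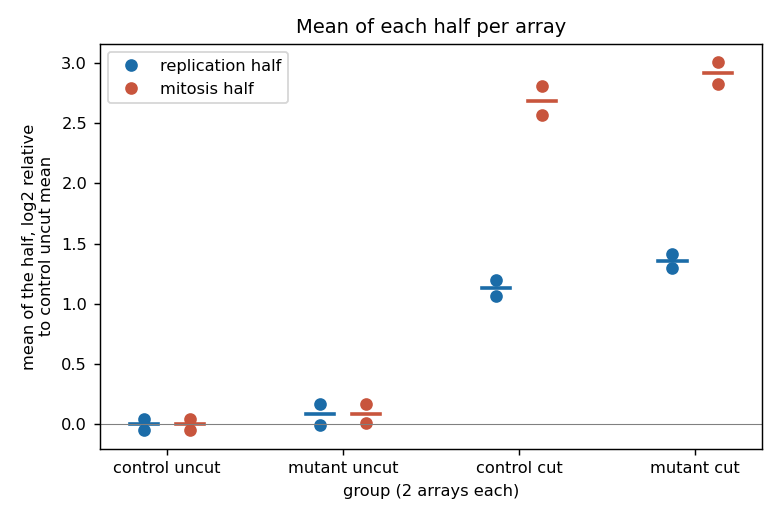
Each point is an array and each bar the mean of its group of 2, with the class mean on the log2 scale relative to control uncut nerve on the y axis. Replication means reach 1.06 to 1.41 and mitosis means 2.56 to 3.002 in cut nerve, with the mutant slightly above control in both.

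By the medians of single genes, replication stood below mitosis by 1.73 for the injury difference in control and by 1.88 in the mutant (that is, -1.73 and -1.88), but by only 0.04 for the genotype difference in cut nerve (-0.04), 0.03 in uncut nerve (-0.03) and 0.05 for the interaction (-0.05). The size of the first depended on the probe sets: averaged over all probe sets of a gene it was -1.01 in control and -1.31 in the mutant.

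No replication or mitosis gene was called different between genotypes in cut nerve, where 0.808% of all genes were, 147 in number (0.286% higher and 0.522% lower in the mutant). At an unadjusted p under 0.05 limma gave 5 replication and 3 mitosis genes, and 1429 of all 18194 genes. The fitted difference was nevertheless higher in the mutant for 42 of 43 genes, against 42.4% of all genes, with Gins2 the exception (-0.21). On another Gins2 probe set the difference was 0.04. The medians were 0.22 for replication and 0.26 for mitosis genes against -0.03 for all genes. Both mutant arrays lay above both control arrays for 22 of 43 genes (13 replication and 9 mitosis), against 12.9% of all genes, and below them for 1, against 22.3%. With each array's values centred on its median, 38 of 43 were higher, against 33% of all genes. The medians were then 0.19 for the 43 genes and -0.06 for all genes. All 43 were read from the same 4 cut arrays, so they are not separate observations.

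**Figure D4:**
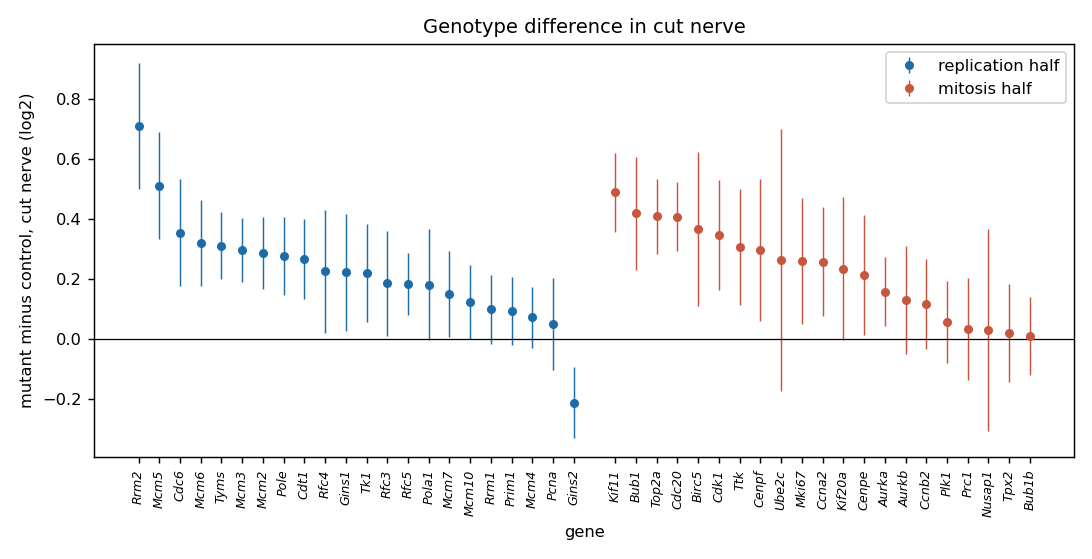
Each point is a gene, ordered within its class, with the mutant minus control difference in cut nerve (log2) on the y axis and a bar of 1 standard error. The points run from 0.71 for Rrm2 to -0.21 for Gins2 among replication genes, and from 0.49 for Kif11 to 0.01 for Bub1b among mitosis genes.

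On the probe sets used, the largest differences were those of Rrm2 and Mcm5 among replication genes and of Kif11 and Bub1 among mitosis genes. Rrm2, given per array above, was higher in the mutant by 0.71 (95% interval 0.23 to 1.19, adjusted p = 0.332). Its 2 other probe sets were higher by 0.59 and 0.58. Without mutant uncut replicate 1 or without replicate 2 it was called (adjusted p = 0.0432), and over all arrays left out in turn the adjusted p ran from 0.0432 to 0.691. Mcm5 was higher by 0.51 (adjusted p = 0.469), but in uncut nerve, too, it was higher by 0.31. On the other Mcm5 probe sets the difference was 0.11 and 0.18 in cut nerve, and 0.40 and 0.08 in uncut nerve. Kif11 was higher by 0.49 (95% interval 0.18 to 0.79, adjusted p = 0.255), and by 0.17 and 0.41 on its other probe sets. Bub1 was higher by 0.42 (adjusted p = 0.66), with values of 7.87 and 7.90 in control and 8.36 and 8.24 in the mutant that did not overlap. The other Bub1 probe set, below the 25th percentile on all 4 cut arrays, was higher by 0.17. Top2a and Cdc20 were each higher by 0.41 (adjusted p = 0.353 and 0.287). Other probe sets gave 0.62 and 0.05 for Top2a, and 0.41 and -0.13 for Cdc20.

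Replicates of a genotype also differed in 1 direction, the control pair by nearly as much as the genotypes and the mutant pair by less. Control cut replicate 1 was above control cut replicate 2 for 37 of 43 genes, with a median of 0.20, and mutant cut replicate 1 was above replicate 2 for 34, with a median of 0.11. Over all genes 59.9% and 54.1% were higher in replicate 1, with medians of 0.05 and 0.02. Mutant replicate 1 was above control replicate 1 for 38 genes (median 0.21) and above control replicate 2 for 42 (0.40). For all genes these shares were 41.1% and 49.9%. Mutant replicate 2 was above control replicate 2 for 37 (0.25), but above control replicate 1 for only 22 of 43 (0.02). Over all genes the shares were 47.3% and 38.6%, with medians of -0.01 and -0.06. In the last pair the replication median was 0.10 and the mitosis median -0.03. Left without control cut replicate 2, the fit gave 33 of 43 genes higher in the mutant with a median of 0.12, and without mutant cut replicate 1 it gave 33 with 0.13. Of all genes 38.1% and 41.6% were higher in these 2 fits.

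**Figure D5:**
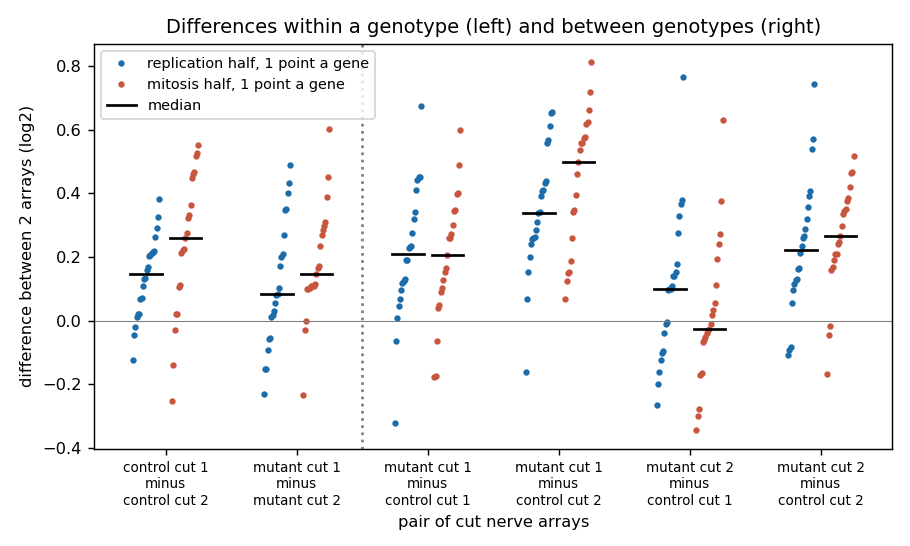
Each point is a gene and each column pair a pair of cut nerve arrays, with the log2 difference of the first minus the second on the y axis and a bar at the median of each class. The 2 pairs left of the dotted line are replicates of a genotype, and their medians lie above 0 like those of 3 of the 4 pairs between genotypes. For mutant 2 minus control 1 the median is 0.10 for replication and -0.03 for mitosis genes.

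In uncut nerve, limma called none of the 43 genes between genotypes, and 0% of all genes, with 4 of the 43 and 603 of all 18194 genes at an unadjusted p under 0.05. The mutant was fitted higher for 30 of 43 genes, against 58.7% of all genes, with medians of 0.08 for replication and 0.11 for mitosis genes. The mitosis median turned to -0.031 without control uncut replicate 1. Mutant uncut replicate 1 stood high for some mitosis genes: Ube2c read 8.04 there and 6.47 in replicate 2, and Nusap1, a spindle protein, 7.41 and 6.12. In control uncut nerve the same genes read 7.51 and 6.87, and 6.70 and 6.47, between those values.

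The interaction asks whether the injury difference itself differed between genotypes. It was called for none of the 43 genes, where 0.181% of all genes were (0.0605% with a larger value in the mutant), and 3 of the 43 had an unadjusted p under 0.05, near the share of all genes (1086 of 18194). It was positive, a larger rise in the mutant, for 18 of 22 replication and 16 of 21 mitosis genes, with medians of 0.10 and 0.15. Over all genes 38.3% were positive, with a median of -0.05. With 1 array left out the replication median ran from 0.016, without control cut replicate 2, to 0.21, without control cut replicate 1, and the mitosis median from 0.0024 to 0.31 without the same arrays. Without control cut replicate 2, or mutant uncut replicate 2, 24 of the 43 were positive, against 36.2% and 40.5% of all genes. The 3 genes with an unadjusted p under 0.05 were Kif11 (0.78, SE 0.19, adjusted p = 0.286), Rrm2 (0.75, SE 0.30, adjusted p = 0.765) and Top2a (0.45, SE 0.18, adjusted p = 0.742). This count uses the same arrays as the genotype comparisons in cut and uncut nerve.

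The wider replication and mitosis machinery moved alongside. Of all genes, 15.6% were called higher and 12.1% lower in control cut nerve, and 12.3% and 12.9% in the mutant. Of 40 measured replication genes outside the 22, 23 were called higher and 0 lower in control cut nerve, and 22 and 0 in the mutant, with medians of 0.47 and 0.48. Dbf4, which activates the helicase-firing kinase Cdc7, rose by 2.61 in control and 2.65 in the mutant. Uhrf1, which carries DNA methylation through replication, rose by 2.53 and 2.89, and Clspn, a fork checkpoint protein, by 1.85 and 2.32. The origin recognition gene Orc1 and the polymerase delta gene Pold1 were not called in control (0.00 and 0.07). Of 56 measured mitosis genes outside the 21, 51 were called higher and 1 lower in each genotype, with medians of 1.55 and 1.76. Cep55, which completes cell separation, rose by 3.64 and 3.76, and Nuf2 and Spc25 of the outer kinetochore by 3.56 and 3.13 in control and by 3.49 and 3.30 in the mutant. Aspm, a spindle pole protein, rose by 2.67 in control and 3.58 in the mutant. Stmn1, a microtubule-destabilising protein also made by neurons and glia, fell by 1.08 and 0.94. None of these genes was called between genotypes in cut nerve, where 0.808% of all genes were. There 31 of 40 and 48 of 56 were fitted higher in the mutant, against 42.4% of all genes, with medians of 0.08 and 0.19. An unadjusted p under 0.05 was found for 6 and 10, against 1429 of all 18194 genes.

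Of 21 regulators of both gene classes, 11 were called higher and 2 lower in control cut nerve, and 8 and 1 in the mutant. The shares of all genes were 15.6% higher and 12.1% lower in control, and 12.3% and 12.9% in the mutant. E2f7 and E2f8, E2F factors that repress, rose most, by 1.79 and 1.44 in control and 1.99 and 1.75 in the mutant. Rbl1, the p107 pocket protein, rose by 1.09 and 1.21, and the activator E2f1 by 1.02 and 0.88. Foxm1, the activator of mitosis genes, rose by 0.58 and 0.50, less than each of the 21 mitosis genes. Tfdp2, an E2F partner, fell by 0.48 and 0.41, and Lin52 of the MuvB core fell by 0.35 in control. None of the 21 was called between genotypes in cut nerve. There 12 were fitted higher in the mutant, against 42.4% of all genes, with a median of 0.02. Of the 21, 2 had an unadjusted p under 0.05, against 1429 of all 18194 genes.

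Markers of several cell types moved with injury, and their part in these rises was not tested. Beside their counts stand the shares of all genes, 15.6% called higher and 12.1% lower in control, and 12.3% and 12.9% in the mutant. Of 10 macrophage markers 10 were called higher in control cut nerve and 8 in the mutant, with Cd68 up by 3.57 and 3.48. Their summed level on the linear scale ran from 7044 to 8336 in control uncut, 25600 to 28080 in control cut, 7205 to 8495 in mutant uncut and 24660 to 28670 in mutant cut nerve, so that it overlapped between genotypes. Of 8 measured Schwann cell markers 4 were called higher and 2 lower in control, and 5 and 1 in the mutant, with Ngfr up by 3.93 and 3.39. Their summed level was 14710 to 14720 in control uncut, 20950 to 21580 in control cut, 11780 to 13820 in mutant uncut and 17160 to 17250 in mutant cut nerve. It was thus lower on both mutant arrays in cut nerve and in uncut nerve alike. In cut nerve limma called none of the 8 markers between genotypes (median -0.30, 3 at an unadjusted p under 0.05). None was called in uncut nerve either (median -0.17, 2 at an unadjusted p under 0.05). Of 6 skeletal muscle markers 5 were called higher in control cut nerve and 6 in the mutant. Their summed level was 21270 to 37600, then 66390 to 77560 in control, and 23180 to 39680, then 71870 to 104700 in the mutant. Mutant cut replicate 2 had the highest muscle level, and its replication and mitosis means were the lower of the mutant pair. Of 7 lymphoid markers 3 were called higher in each genotype, and Gzmb, a cytotoxic granule protease, differed by -2.25 between mutant and control after the cut (adjusted p = 0.0182). Fibroblast markers had 2 of 6 higher and 1 lower in each genotype. Endothelial markers had 1 of 6 lower in control and 3 in the mutant, and mural markers 3 of 6 lower in each. Of 6 mast cell markers 1 was higher in control and 2 were lower in the mutant, and none of 4 neutrophil or 4 erythroid markers was called. Gzmb was the only marker of all these lists called between genotypes in cut nerve.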

How the data were processed

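The deposited values are log2 expression values of 45101 probe sets on 8 arrays, made by the authors with RMA (affy), per the submitters' processing notes, with no version given. Precision is set by how few arrays there are, and no detection calls, scan dates or intensities were used. GEO's platform annotation gave 1 symbol to 34958 probe sets, several to 932 and none to 9211, and 34754 were matched to RefSeq with 0 symbols changed. Each gene was represented by the probe set with the highest mean over all arrays, without a filter on low signal, since 22 of the 43 genes would have passed one set at the median only through the cut arrays. Tyms would have failed it.

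limma 3.58.1 in R 4.3.3 was fitted over all 8 arrays with 1 coefficient for each of the 4 groups (residual df 4, prior df 4.267) and the script was tested on simulated data. Each of the 5 comparisons was adjusted by Benjamini-Hochberg over 18194 genes. The members, the marker and pathway lists and the rule for genes described per array were chosen with earlier results of these data known. That rule took, from each class, the 3 highest and 2 lowest injury differences in control and the 2 largest genotype differences in cut nerve, plus the 3 largest per additional list. E2f1, Foxm1, Orc1, Pold1, Ube2c and Nusap1, and the Rrm2 and Kif11 promoters, were chosen after their values were seen. Top2a, Stmn1, Tfdp2 and Lin52 also fall outside that rule. The labels state 2 independent samples per group, but do not state whether cut and uncut samples with a shared number came from the same mice. Same-numbered arrays deviated from their group means with correlations of 0.032 to 0.275. Alternatives covered filters, probe set choice, normalisation, the variance model, a replicate block and each array left out.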

Additional observations from a re-analysis of the deposited data

Results flagged for a closer look

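Kif11 drew attention because mutant arrays were above control in cut nerve (6.99 and 7.02 against 6.39 and 6.64) and below it in uncut nerve (5.51 and 5.51 against 5.64 and 5.95), without overlap in either. Its interaction was 0.78 on the log2 scale (SE 0.19, unadjusted p = 0.00305, adjusted p = 0.286 by limma), which did not pass the threshold. The gene's 2 other probe sets gave interactions of 0.17 and 0.25.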

How the results depend on the processing

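With 2 arrays a group, each of pooled nerves, precision is limited. On the probe set used, 3 mitosis genes were too dim in uncut nerve for more than a lower bound, and Tyms lay near the floor in control throughout. The direction of each injury median and of the genotype median in cut nerve held under all alternatives run. A filter at the 75th percentile of signal left 11 replication and 11 mitosis genes, all called (11 of 11) in both injury comparisons, and replication minus mitosis became -2.33 in control and -2.06 in the mutant. A gene could pass that filter through 2 high cut arrays alone, so neither value bears on stability. It became -1.01 and -1.31 with the mean of probe sets, and -1.46 and -1.54 with the probe set highest in uncut nerve. With each array left out in turn it ran from -1.89 to -1.55 in control, -2.07 to -1.68 in the mutant, -0.10 to 0.085 for genotype in cut nerve, -0.045 to 0.16 in uncut nerve and -0.24 to 0.11 for the interaction, so the genotype and interaction values have no stable sign. Replication genes called between genotypes in cut nerve ran from 0 to 1, the 1 being Rrm2. With the mean of probe sets Tyms turned to -0.014 in control (adjusted p = 0.938). Tyms was not called in the mutant with the mean of probe sets (0.22, adjusted p = 0.145). Cenpf was not called in control with the probe set highest in uncut nerve (0.48, adjusted p = 0.119). With that choice, Bub1b and Tpx2 were called in neither genotype. One Bub1b probe set differed by 0.06 in control and 0.16 in the mutant. The one used rose by 1.66 and 1.48, and a further one by 2.20 and 2.21. Mcm10 was called in neither genotype with the mean of probe sets. The causes were not tested. Over all genes, 147 calls for genotype in cut nerve became 34 to 124 with an array left out and 56 with only the 4 arrays compared. The 4585 for injury in the mutant became 3039 without mutant uncut replicate 2 and 2860 without mutant cut replicate 2. The interaction's 33 became 0 to 51 with an array left out, and 20 and 11 with the filters. The replicate block, whose numbers may not pair the samples, gave 41 of the 43 genes called in control in place of 39 and 43 in the mutant, and 0 between genotypes in cut nerve, with 5 calls over all genes in uncut nerve in place of 0, which ran to 12 with only the 4 arrays compared. The fit on only the arrays compared was not run for the interaction, which needs all 8.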
